A study of Mus musculus with 4 samples.

Results

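The cytosines described here were those in CpG dinucleotides that were partly methylated in the livers of both Mixed mice and more methylated in both B6 mice. A cytosine was a member when it lay on an autosome, was covered by 15 or more reads in each of the 4 mice, had a lower B6 value at least 15 points above the higher Mixed value, and was above 5% in both Mixed mice. The rule chose 1460 cytosines at 1453 CpGs, of 1141713 autosomal cytosines with that coverage, which is 0.128%. Only cytosines whose lower B6 value was above 20% could meet the rule, and the members were 0.401% of these 364539. The methylation of all 4 mice chose the members, so their levels and the difference between the strains are given as a description, with no test, and 2 mice against 2 could in any case give no exact permutation p below 0.333.

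Liver DNA methylation was measured by enhanced reduced representation bisulfite sequencing (ERRBS) in 4 male mice aged 6 to 8 weeks on a normal diet. Mixed-1 and Mixed-2 had an undefined background that held C57BL/6J and other strains, and B6-1 and B6-2 were of the inbred strain C57BL/6, called Black-6. Each library came from the whole liver of 1 mouse, a tissue made up mostly of hepatocytes. The strains were kept at different institutions. Coverage summed over the CpG cytosines with data was 60654199 and 65176203 in the Mixed mice against 91886997 and 99215153 in the B6 mice. A read counts in these sums once for each such cytosine it covers. Strain, housing and depth thus cannot be told apart. Only 2 of 13 hepatocyte marker genes, Apoa2 and Hnf4a, had data around their start sites, where the mean methylation was 0.458% and 25.5%. No member lay in these regions.

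DNA methyltransferases add a methyl group to the cytosine of a CpG, mostly on both strands, and most CpGs of a mammalian genome are methylated while those in CpG islands (CpGi) at promoters are mostly not. ERRBS cuts the DNA with MspI at CCGG, the enzyme the labels name, which enriches CpG-rich sequence; the method is also run with TaqαI added. Bisulfite then turns unmethylated cytosine into a base read as T, so the percent of reads with C gives the methylation of that cytosine, with 5-hydroxymethylcytosine counted as methylated. A value between the extremes in whole liver can come from a mixture of cells or of alleles, and fewer methylated cells of a type and a changed makeup of cell types cannot be told apart. A C-to-T change in the genome of a mouse also reads as an unmethylated cytosine.

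The member CpGs with the most close neighbours of the same kind carried the clearest shared pattern, and the mm10 reference sequence of the first 5 such regions is shown for that reason. Each runs 5′ to 3′ on the plus strand with 10 bases on either side, and capitals mark the CpGs that were members on 1 or both strands.

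Cnbd2 intron, chr2:156362976-156363039: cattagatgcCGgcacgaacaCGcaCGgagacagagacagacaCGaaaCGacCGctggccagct
Intergenic, nearest start Gm40287, chr12:15377826-15377927: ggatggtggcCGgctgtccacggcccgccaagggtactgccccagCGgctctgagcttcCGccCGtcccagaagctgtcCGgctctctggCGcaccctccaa
Intergenic, nearest start n-TKctt13, chr17:23523472-23523556: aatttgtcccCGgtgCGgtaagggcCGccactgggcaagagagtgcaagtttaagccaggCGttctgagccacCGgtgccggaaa
Inpp5a intron, chr7:139559901-139560009: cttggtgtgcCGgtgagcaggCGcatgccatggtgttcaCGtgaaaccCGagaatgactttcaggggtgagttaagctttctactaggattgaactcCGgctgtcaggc
Jph3 coding exon, chr8:121753603-121753658: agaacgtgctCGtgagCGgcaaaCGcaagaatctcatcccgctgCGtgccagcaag

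The members were intermediate in the Mixed mice and ranged from intermediate to high in the B6 mice. The median over the members came to 44.4% in each Mixed mouse, 72.1% in B6-1 and 71.1% in B6-2. Over the cytosines that could have been members, the medians were 87.8%, 88.6%, 87.5% and 87.8% in the order Mixed-1, Mixed-2, then B6-1, B6-2, which means that the members started from a lower level in the B6 mice as well. The middle 50% of the members lay between 27.8% and 61.9% for Mixed-1, 27.1% and 61.7% for Mixed-2, 55.6% and 86.9% for B6-1, and 54.5% and 86.8% for B6-2. Within a strain the median difference at members was 4.56 points between the Mixed mice and 4.17 points between the B6 mice. Over the cytosines that could have been members it was 5.22 and 5.43 points. The rule itself favours cytosines at which the mice of a strain are close.

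**Figure D1:**
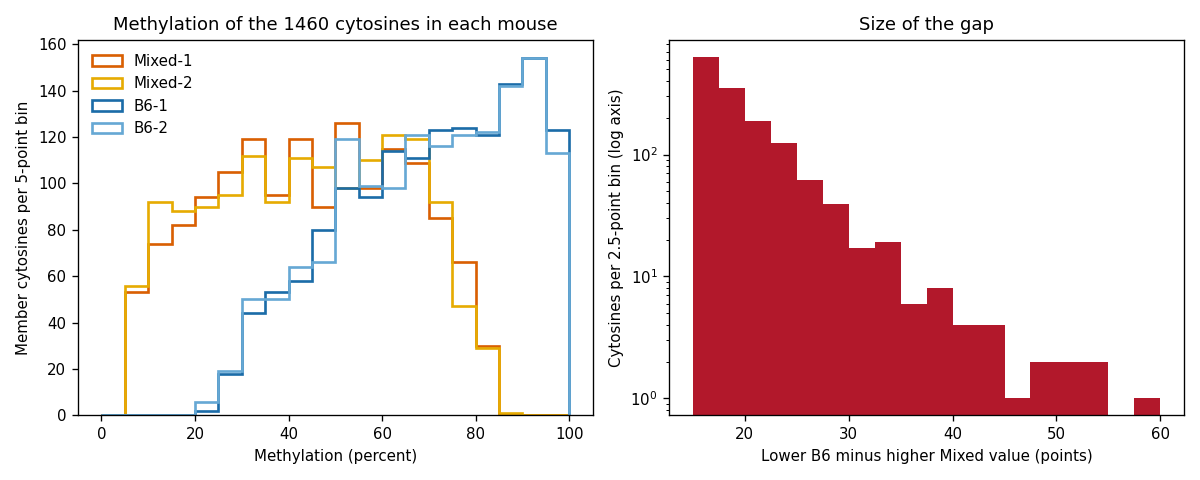
Left, the number of member cytosines in each 5-point bin of methylation (percent) in each of the 4 mice, one line a mouse. Right, the number of members by the lower B6 minus the higher Mixed value (points, bins of 2.5, log axis of counts). The Mixed lines peak below 80% and the B6 lines rise towards 100%, while most gaps lie close to the threshold of 15 points.

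Most members were only just past the rule. The median gap between the lower B6 and the higher Mixed value was 18.1 points, 980 of the 1460 had a gap below 20, and 167, 66, 16 and 5 had a gap of at least 25, 30, 40 and 50 points. Of the members, 276 had a gap under 16 points, and 402 further cytosines that missed the rule had a gap of at least 14 points. Just inside the threshold, an intronic cytosine of Wnt4, which encodes a secreted Wnt ligand, had 65.0%, 63.6%, 88.2% and 80% in the same order of mice, which is kept below. Just outside it, an exonic cytosine of Crip2, a LIM domain protein, had 70.1%, 65.6%, 85.1% and 87.7%. These values are as far apart inside as outside, so the edge of the set is a matter of the chosen cut.

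Measured as a ratio, the median member kept 0.635 of the B6 mean in the Mixed mice, and the median difference of the means was 24.1 points. In 204 members (13.97%) both Mixed values were between 0.4 and 0.6 of the B6 mean, in 108 both were lower than that, and in 684 both were higher. At 460 members (31.5%) both B6 mice were above 80%, or hypermethylated, against 58.4% of the cytosines that could have been members. Both Mixed mice were between 20% and 80% at 1144 members (78.4%, against 24.4%), a share that the rule itself raises because it bounds the Mixed values. All 4 mice were in that range at 597 members (40.9%, against 20.2%). Thus more members had intermediate values in every mouse than fell from full methylation, and only 7 had both B6 values above 80% with both Mixed values below 50%. A further 194 cytosines had the same gap with a Mixed value of 5% or less and are not members.

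The share of cytosines chosen depended on the B6 level. It was 0.573% where the lower B6 value was between 20% and 40%, 0.983% between 40% and 60%, 0.546% between 60% and 80% and 0.216% above 80%. The largest share was therefore found among cytosines near the middle of the scale, where the counting error of a percentage is also largest.

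Depth bears directly on these values. The members were covered by a median of 35.0 and 37.5 reads in Mixed-1 and Mixed-2 and by 56.0 reads in each B6 mouse, and the lowest coverage among the 4 mice had a median of 29, against 33 for the cytosines that could have been members. At a member, the Wilson 95% interval of 1 value was 24.5 points wide in the median. The intervals of both B6 values lay above those of both Mixed values at 167 members (11.4%), and these intervals cover counting error only, since the fragments were amplified and their reads can repeat a molecule.

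To set the number of members against what the same rule finds without regard to strain, the 4 mice were split into their 2 other pairings, each read in both directions. The pair Mixed-1 and B6-1 was jointly lower at 1245 cytosines (0.109% of all eligible and 0.341% of those that could have met that rule), and the reverse held at 936 (0.082% and 0.258%). With Mixed-1 and B6-2 on the lower side 1145 cytosines (0.1% and 0.315%) met the rule, and with Mixed-2 and B6-1 on the lower side 969 (0.0849% and 0.266%) did. The 1460 members (0.128% and 0.401%) were thus between 1.17 and 1.56 times as many as the cytosines of the other arrangements, an excess that is small beside the total. The opposite strain direction, with both B6 mice partly methylated and lower, held 2201 cytosines (0.193% and 0.604%) with a median gap of 18.1 points, as for the members.

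The excess over the other pairings was larger at well-covered cytosines than at thinly covered ones. Where the lowest coverage was between 15 and 29 reads, 752 cytosines were members against 592 to 767 in the other pairings, and the pairing with Mixed-1 and B6-1 lower held more than the members did. Between 30 and 59 reads the numbers were 596 against 318 to 448. At 60 reads or more 112 cytosines were members, 0.385% of those that could have been, against 26 to 30 in the other pairings, at most 0.103%. In the deepest class the members also outnumbered the 70 cytosines of the opposite strain direction. With a gap of 10 points in place of 15 the order did not hold, as 4825 cytosines met the rule against 5039 with Mixed-1 and B6-1 lower.

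**Figure D2:**
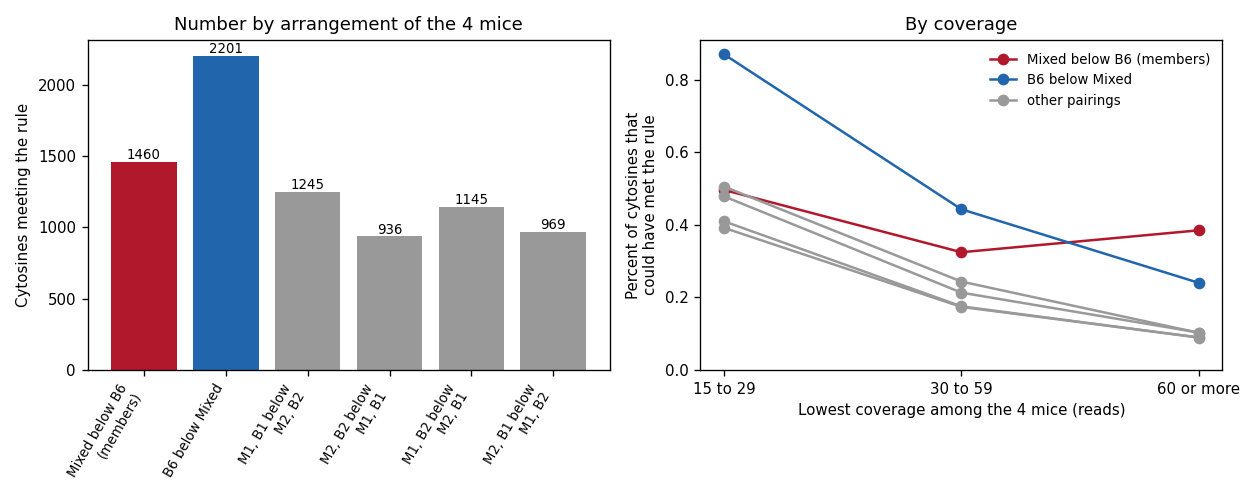
Left, the number of cytosines meeting the rule when the 4 mice are arranged by strain in each direction or by the other pairings (M, Mixed; B, B6). Right, the same as a percent of the cytosines that could have met the rule, by the lowest coverage among the 4 mice; the 1460 members fell among the other pairings at 15 to 29 reads and stood above them at 60 reads or more.

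Grouping is a second way to compare the arrangements. Members at most 200 bp apart formed 1303 regions, of which 1192 (91.5%) held a single CpG. Regions with 2 or more member CpGs numbered 111, against 54 to 56 in the other pairings, and regions with 3 or more numbered 25, against 7 to 12. The opposite strain direction had 160 and 29. Clustering was therefore more frequent when the mice were arranged by strain, although most members stood alone.

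Cytosines next to a member moved in the same direction less strongly. For each member, other CpGs with 15 or more reads in all mice were read by distance, and a neighbour was called separated when both B6 values were above both Mixed values, which held at 16.3% of the cytosines that could have been members. Of 5285 neighbours within 50 bp, 34.8% were separated, against 17.4% around all cytosines that could have been members. Their mean methylation was 57.9% in Mixed-1 and 57.8% in Mixed-2, against 63.6% in B6-1 and 64.1% in B6-2. Beyond 50 bp the share was 26.0% up to 100 bp (against 16.5%), 22.9% from there up to 200 bp (against 16.2%), 19.1% up to 500 bp (against 15.9%) and 16.1% up to 1000 bp (against 13.4%). Over all neighbours the shared change thus declined with distance, and the median B6 minus Mixed difference went from 3.88 points within 50 bp to 1.90, 1.32, 0 and 0 points in the farther classes. The farther classes also held less methylated neighbours. Among neighbours that could themselves have been members, the medians were 4.83, 2.40, 1.93, 1.44 and 1.29 points, so they did not reach 0.

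These shares partly reflect the members themselves and shared reads. Reads had 50 cycles, so cytosines within 50 bp on 1 strand can be read from the same molecules, and a member can be a neighbour of another. With members left out, 30.1% of neighbours within 50 bp and 23.9% of those up to 100 bp away were separated. Neighbours that could themselves have been members were separated in 37.8%, 27.5%, 25.1%, 24.3% and 24.6% from the nearest class to the farthest, against about 17% to 18% around all such cytosines. Around the cytosines of the opposite strain direction the share separated in their own direction was 39.8% within 50 bp and still 25.6% between 500 and 1000 bp, where it was 16.1% for the members. Among neighbours that could themselves have met the rule, the shares in that farthest class were 30.5% and 24.6%.

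**Figure D3:**
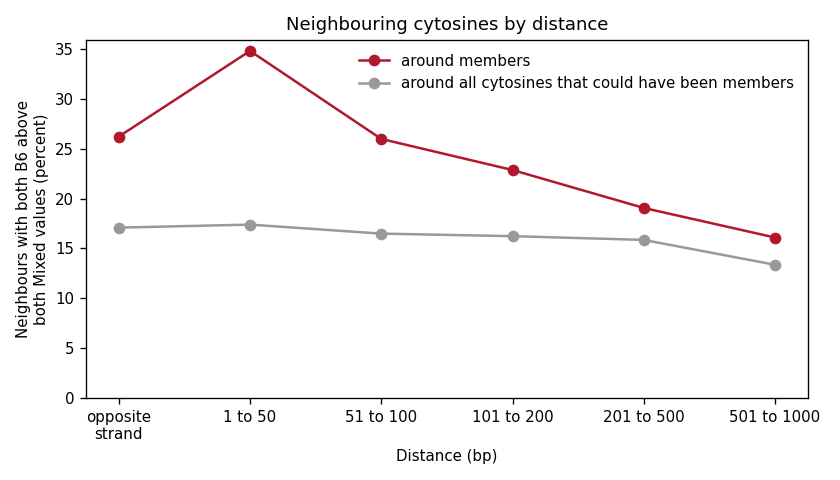
Percent of neighbouring cytosines with both B6 values above both Mixed values (vertical axis) by distance in bp (horizontal axis), around members and around all cytosines that could have been members. The share around members falls from 34.8% within 50 bp to 16.1% between 500 and 1000 bp, and the other line stays between 13.4% and 17.4%.

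The cytosine on the opposite strand of the same CpG comes from other reads, and it was covered in all mice at 492 members. Both B6 values were above both Mixed values at 26.2% of these, against 17.1% for the cytosines that could have been members. The means on the opposite strand were 65.5% and 65.8% in the Mixed mice and 68.6% and 69.5% in the B6 mice, a far smaller difference than on the member strand. At 194 of the 492 (39.4%) the Mixed mean on the opposite strand was not below the B6 mean, so at these the difference was seen on 1 strand only. Members in CCGG had medians of 38.9% in Mixed-1 and 66.4% in B6-1, against 50% and 77.8% at the other members. The library steps include end repair after the cut, and whether they set the strands apart was not tested. In 14 cases (2.85%, against 0.535% for the cytosines that could have been members) the partner was a member too, which makes 7 CpGs that met the rule on both strands. They lay in Inpp5a, Trim11, Camk2g, Farp1 and Abca17 and, with 2 CpGs, in the region nearest n-TKctt13. At the CpG of Camk2g, which encodes a calcium/calmodulin-dependent kinase subunit, the values were 38.9%, 27.3%, 68.1% and 61.6% on 1 strand and 31.6%, 26.5%, 56.0% and 54.5% on the other.

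Reads with a base other than C or T were rare at the members. Such reads made up 5% or more in at least 1 mouse at 4 members (0.274%, against 0.0996%), in an exon of the noncoding RNA Gm52543 and in coding exons of Wnt4, Adad2 and Zfp488. The Wnt4 cytosine had 70.8%, 56.2%, 95.7% and 98.1%, and other bases made up 6.25% of its 16 reads in Mixed-2 and none in the other mice. Any such read was found at 31 members. These values do not show whether a C-to-T change in the mixed background lies at a member, which was not tested.

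The 25 regions of 3 or more member CpGs held 89 of them and lay on 12 chromosomes, 6 of them on chromosome 17. Their mean difference ranged from 20.2 to 52.4 points, 10 were intergenic, 12 touched an exon or intron, 3 touched a promoter and 7 a CpGi, and 5 held soft-masked repeat bases. In 11 of them every cytosine with data had both B6 values above both Mixed values. The first 12, ranked by member CpGs and then by difference, are described below, and in several the Mixed mice were far from each other.

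The first region lay in an intron of Cnbd2, which encodes a protein with a cyclic nucleotide binding domain, and held 6 member CpGs, 5 of them in soft-masked sequence. Its members averaged 24.7% ± 3.44 in Mixed-1 and 71.4% ± 2.47 in Mixed-2, against 95.8% ± 4.69 in B6-1 and 94.9% ± 1.89 in B6-2 (SD over 6 cytosines of 1 strand, which share reads). The B6 mice were near full methylation, and Mixed-1 was much lower than Mixed-2. Over its 7 cytosines with data the strains differed by 46.1 points, and without Mixed-1 by 22.5.

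The second region lay between genes, with the start of Gm40287 as the nearest, and also held 6 member CpGs, 4 of them soft-masked. Here Mixed-2 was the lower, with 45.7% ± 9.86 against 62.6% ± 6.70 in Mixed-1 (SD over 6 cytosines), 85.9% ± 7.85 in B6-1 and 85.5% ± 5.84 in B6-2. The difference over its 10 cytosines with data was 26.1 points, and 17.1 without Mixed-2. The 7 cytosines beside it had 80.04%, 57.1%, 88.0% and 84.1%, so the change was carried further by Mixed-2 than by Mixed-1.

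The region upstream of the start of n-TKctt13, a transfer RNA gene for lysine, had the largest mean difference of the 25. Its 7 member cytosines at 5 CpGs, on both strands, averaged 34.3% ± 6.30 in Mixed-1 and 18.9% ± 4.44 in Mixed-2, against 77.3% ± 7.47 in B6-1 and 80.7% ± 6.73 in B6-2 (SD over 7 cytosines), a difference of 52.4 points. Every cytosine of it with data was a member. Leaving out any 1 mouse gave differences between 44.7 and 60.1 points.

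In the intron of Inpp5a, an inositol polyphosphate 5-phosphatase, 6 cytosines at 5 CpGs averaged 61.2% ± 4.86 in Mixed-1 and 40.3% ± 5.76 in Mixed-2, against 89.1% ± 4.06 in B6-1 and 89.9% ± 5.15 in B6-2 (SD over 6 cytosines). All cytosines with data in it were members, on both strands, none in a repeat. The difference was 38.8 points, and between 28.4 and 49.2 when either Mixed mouse was left out.

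The region in Jph3, which encodes a junctophilin that holds the plasma membrane and endoplasmic reticulum together, lay in a coding exon inside a CpGi. Its 4 member cytosines averaged 23.7% ± 7.58 in Mixed-1 and 27.8% ± 2.68 in Mixed-2, against 50.7% ± 6.08 in B6-1 and 56.7% ± 8.78 in B6-2 (SD over 4 cytosines). Unlike the previous regions, it was intermediate in the B6 mice, and the Mixed mice were close to each other. The 27 cytosines around it had 45.1%, 47.8%, 52.6% and 58.5%, a difference of 9.13 points.

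**Figure D4:**
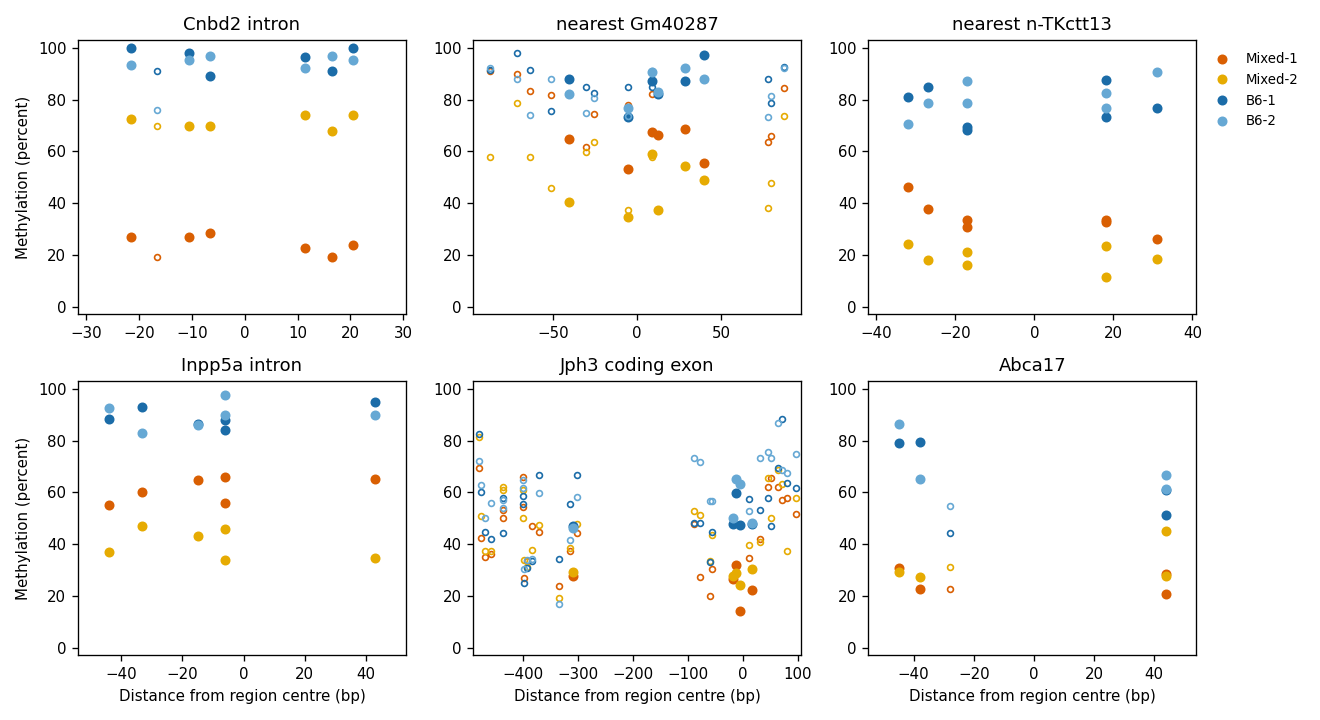
Methylation (percent) of each cytosine with data in the 4 mice against its distance from the centre of the region (bp) for 6 of the first 12 regions. Filled points are members and open points are other cytosines; orange and yellow are the Mixed mice and dark and light blue the B6 mice. In the Cnbd2 intron Mixed-1 lies apart at about 24.7%, and in the region nearest n-TKctt13 both Mixed mice lie below both B6 mice at every cytosine.

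Of the remaining regions among the first 12, 2 more lay on chromosome 17 and had low values in both Mixed mice. In Abca17, an ABC transporter gene, the 4 member cytosines of an intron and the coding exon beside it, at chr17:24265396-24265486, averaged 25.8%, 32.4%, 67.7% and 70.0%, a difference of 39.7 points. The region nearest Gm24071, at chr17:48646893-48646981, averaged 18.3%, 15.6%, 45.7% and 58.98%. A second region of 3 member CpGs followed it at chr17:48647495-48647604 with 16.3%, 13.02%, 43.6% and 54.6%. The Mixed mice differed by less than 7 points in each of these regions.

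The others differed more within the Mixed pair or lay within genes at moderate levels. In Zscan12, a zinc finger gene, 3 cytosines in a coding stretch within 1000 bp of the start averaged 40.7%, 64.5%, 92.6% and 89.7%, at a coverage of 18 to 21 reads. The repeat region nearest Setmar had 66.6%, 35.1%, 85.7% and 85.4%, and its difference over all cytosines went from 31.6 to 14.6 points without Mixed-2. In Nacad the 4 members had 43.7%, 33.9%, 63.3% and 68.5%, but over all cytosines of the region the difference was 13.8 points, and 7.89 without Mixed-2. The opposite strand of the first of these CpGs had 5.88%, 0%, 2.78% and 0%. Samd14, which encodes a sterile alpha motif protein, had 31.3%, 35.9%, 52.4% and 59.1% in a coding exon inside a CpGi, but over all cytosines of the region the difference was 11.5 points, and 2.82 in the cytosines beside it. The region nearest Gm40562 had 55.6%, 66.6%, 91.1% and 86.3%, on 22 to 24 reads in Mixed-1, and its difference over all cytosines went from 25.2 to 15.5 points when 30 reads were asked for.

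The members with the largest gaps mostly stood alone. The largest, between genes on chromosome 8 with Gm6360 as the nearest start, had 9.30% of 43 reads, 33.9% of 59, 93.7% of 79 and 93.8% of 65. Its Wilson intervals ended at 46.6% in Mixed-2 and began at 85.2% in B6-2. The next, nearest I0C0044D17Rik, had 19.2%, 38.2%, 100% and 92.5%, and the third, nearest n-TKctt9, had 40.3%, 43.8%, 96.9% and 97.6%. An intronic cytosine of Dnah8, an axonemal dynein heavy chain gene on chromosome 17, had 37.5%, 24.4%, 97.1% and 88.6%. The 2 that followed were a cytosine of the region nearest n-TKctt13 and one of Abca17. In these 6 the B6 values were each above 75%, and the gap was between 48.1 and 59.8 points.

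Chromosome 17 held 115 members, 0.665% of its cytosines that could have been members, the highest share of the 19 autosomes, and 18 of the 66 members with a gap of 30 points or more. The opposite strain direction was also frequent there, with 145 cytosines (0.840%). The member share on the other chromosomes went from 0.288% on chromosome 19 to 0.513% on chromosome 12. Of the windows of 5 Mb with such cytosines, 398 held a member and the median window held 2. The window from 20 to 25 Mb of chromosome 17 stood out with 18 members among 747 cytosines that could have been (2.41%). Of these members 9 had a gap of 30 points or more, beside 5 cytosines of the opposite strain direction. The region nearest n-TKctt13 held 7 of the 18 and that of Abca17 held 4, and together they held most of the 9. In the window from 25 to 30 Mb, which held the most members, 24 stood beside 37 of the opposite direction, and from 45 to 50 Mb 18 stood beside 27. Counts per window depend on linked cytosines and on which cytosines had data.

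Most members lay outside CpGi and away from promoters. By the RefSeq annotation, 179 (12.3%) were in promoters, taken as 1000 bp on each side of a start site, 294 (20.1%) in exons, 465 (31.8%) in introns and 522 (35.8%) between genes. The cytosines that could have been members had 8.51%, 23.0%, 35.7% and 32.8%. In CpGi lay 145 members (9.93%, against 5.07%), in shores 112 (7.67%, against 6.21%) and in soft-masked repeats 189 (12.9%, against 16.05%). The members were thus placed much like other methylated cytosines, with somewhat more between genes and in promoters and CpGi and fewer in introns, exons and repeats.

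**Figure D5:**
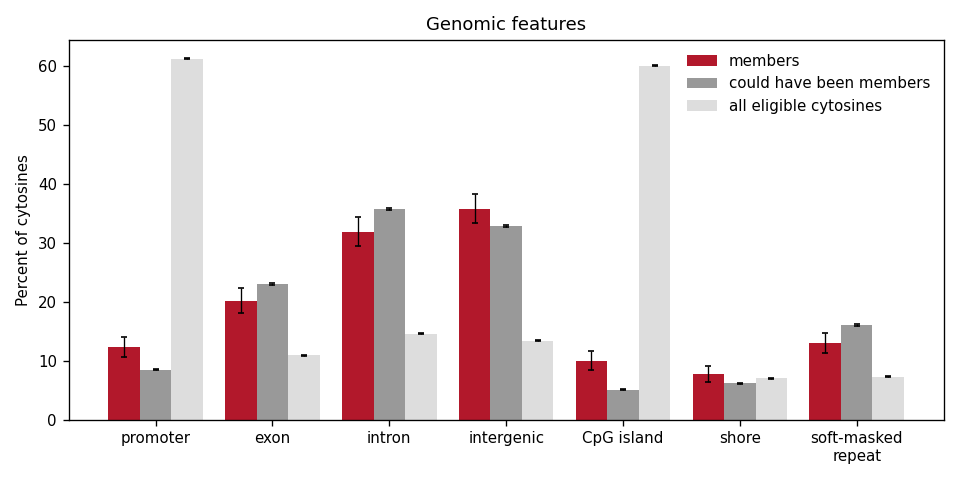
Percent of cytosines in each feature for the members, for the cytosines that could have been members and for all 1141713 eligible cytosines. Error bars are Wilson 95% intervals for counting error and treat cytosines as independent, which neighbours are not; CpGi hold 9.93% of members and 5.07% of those that could have been.

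The B6 level is tied to the feature, since CpGi and promoters hold more intermediate cytosines. Among cytosines with a lower B6 value between 40% and 60%, 14.2% of members were in promoters against 13.9% of those that could have been, and 11.99% against 8.01% were in CpGi. Between 60% and 80% the shares were 10.49% against 8.32% for promoters and 8.99% against 3.41% for CpGi. At matched B6 level the promoter share was thus nearly the same in the first band, while the CpGi share of members was higher in both. Over all levels the opposite strain direction had the same tendency, with 12.3% in CpGi (against 5.12%) and 15.9% in promoters (against 8.55%), so it was not particular to the members.

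Local sequence showed the same. The 200 bases around a member held a median of 7 CpGs and 55.5% GC, against 6 and 54.5%, and 46.8% of members lay in a CCGG site of MspI, against 51.1%. The share chosen went from 0.295% where 1 to 3 CpGs lay in the 200 bases to 0.362% for 4 to 7, 0.443% for 8 to 12 and 0.766% for 13 or more. It therefore went up with each step in CpG number, and the B6 level was not held fixed in that count.

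The promoter members were found at 160 genes, 16 of which held 2 or more, and 64 of the 179 lay within 250 bp of a start. The largest promoter gap was at Slc25a34, a mitochondrial carrier gene, in coding sequence 357 bp after its start, with 17.4%, 13.04%, 78.9% and 64.7% at 17 to 23 reads. Camta1, which encodes a calmodulin-binding transcription activator, had 18.4%, 20.9%, 57.0% and 56.7% before that start, in an untranslated exon of another transcript. The opposite strand of that CpG had 75%, 94.7%, 100% and 83.3%, far higher in each mouse. Mtmr7, a myotubularin-related phosphatase gene, had 27.4%, 25%, 57.4% and 57.7% on 60 to 122 reads, and 100%, 85.4%, 85.7% and 76.8% on its opposite strand, where the Mixed mice were the higher. Mir1191b had 55.6%, 55.6%, 87.5% and 96.6%, with 86.8%, 86.2%, 82.6% and 87.0% on the opposite strand. Slc25a34 had 31.6%, 18.2%, 43.8% and 37.5% there, the only opposite strand with data among these genes on which both B6 mice were above both Mixed mice. Gm32093 had 58.8%, 58.3%, 87.5% and 87.5%, and the sixth was the Zscan12 region. At the members of Camta1, Mtmr7 and Gm32093 the mice of a strain differed by less than 3 points, a closeness that the rule favours.

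Over all annotated genes, 868 of the 19570 with a cytosine that could have been a member held one in the promoter, an exon or an intron (4.44%). A single member was found in 712 of them, 33 held 3 or more, and 180 also held a cytosine of the opposite strain direction, so that a member in a gene does not give the direction of the gene as a whole. After overlapping transcripts of chromosome 18 with 8 members, the most were in Anks1 with 7, Cnbd2 and Inpp5a with 6 each and Jph3 with 5. Long genes with many covered cytosines have more chances to hold a member, and 138 cytosines could have been members in Anks1.

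The lists of plasma protein, clock and metabolic enzyme genes held few genes with a member, and the shares of the other lists are given beside each. None of the 18 plasma protein genes and none of the 15 clock genes with data held one, nor did the cholangiocyte, endothelial and Kupffer or leukocyte markers. Among 31 metabolic enzyme genes 2 held a member (6.45%, against 4.44%). Of these, Cps1 was also the only 1 of 6 hepatocyte markers with such cytosines to hold a member (16.7%). Pklr, the liver pyruvate kinase of glycolysis, had 60.5%, 67.9%, 88.3% and 84.3% in a coding exon, and Cps1, the first enzyme of the urea cycle and a hepatocyte marker, had 53.3%, 47.6%, 68.8% and 75.9% in an intron at 15 to 29 reads. With so few genes in a list, a count of 0 to 2 is close to what 4.44% would give.

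Of 31 transcription factor and nuclear receptor genes, 4 held a member (12.9%, against 4.44% over all genes), each 1 cytosine. Rxra, the shared partner of many nuclear receptors, had 20.6%, 20%, 52.9% and 57.4% in an untranslated exon, on 50 to 68 reads, while the opposite strand of that CpG had 20.5%, 35.7%, 25.8% and 41.2%, values that overlap between the strains. Thrb, a thyroid hormone receptor, had 11.5%, 11.6%, 34.1% and 35.0% in an intron. Rarb, a retinoic acid receptor, had 36.4%, 40.9%, 59.6% and 62.0%, and Ppard, a receptor for fatty acids, had 52.0%, 60%, 80% and 77.3%, both in introns. The list's genes had a median of 17 cytosines that could have been members, against 7 over all genes, and its members were 0.565% of them, against 0.404%. In such shares of a list or of all genes, a cytosine counts once for each gene that holds it.

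Among 58 cytochrome P450 genes, which oxidise drugs, steroids and fatty acids, 4 held members. The pseudogene Cyp4f41-ps on chromosome 17 held 3, with 18.3%, 16.9%, 45.5% and 40% at the first and 23.1%, 13.7%, 44.3% and 36.2% on its opposite strand. Cyp2e1, which oxidises ethanol, had 48.9%, 56.0%, 80.8% and 71.3%, Cyp2j8 had 23.1%, 39.1%, 64.5% and 58.8%, and Cyp2c50 had 26.3%, 34.6%, 50.0% and 69.2%, each in an intron. The list's genes with a member made up 6.90%, against 4.44% over all genes, and its members 1.10% of the cytosines that could have been, against 0.404%, with 3 of the 6 in the pseudogene. P450 genes have near copies, so reads at such cytosines are uncertain in their placement.

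Of 35 imprinted genes, 4 held a member (11.4%, against 4.44% over all genes). These genes had a median of 25 cytosines that could have been members, against 7 over all genes. Commd1 and Zrsr1 shared 1 member, since Zrsr1, expressed from the paternal allele, lies within Commd1. This cytosine, in the coding exon of Zrsr1, had 48.0%, 50.0%, 67.4% and 67.6%. H19, a noncoding RNA expressed from the maternal allele, had 38.5%, 33.3%, 55.1% and 63.3% in an exon. Fkbp6 had 70.0%, 65.5%, 88.3% and 86.4% in coding sequence of its promoter region. Counted once for each gene, so that the shared member counts for both genes, the members were 0.291% of 1373 that could have been. This was below the 0.404% over all genes.

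Among 14 genes of the methylation machinery only Dnmt3b, the gene of a methyltransferase that sets methylation anew, held a member (7.14%, against 4.44%). The list's genes had a median of 17.5 cytosines that could have been members, against 7 over all genes. Its members were 0.328% of them, below the 0.404% over all genes. Dnmt3b had 16%, 11.4%, 54.1% and 48.9% in an untranslated exon, on 44 to 88 reads, a gap of 32.9 points. The opposite strand of this CpG was nearly full in every mouse, with 100%, 97.8%, 94.6% and 100%. In the 16 growth hormone and STAT5 genes, only Cux2 held a member (6.25%), and members were 0.204% of the cytosines that could have been. Cux2, a homeobox factor, had 36.0%, 27.3%, 55.6% and 52.0% near a start site. In Cux2 308 cytosines could have been members, and 3 were of the opposite strain direction. Of 4 stellate and fibroblast markers with such cytosines, 1 held a member (25%). It was Pdgfrb, a growth factor receptor, with 29.2%, 33.8%, 50.0% and 55.1% in a coding exon. The members in Dnmt3b, Rxra and Thrb thus had the wider gaps among the listed genes. Their mice of a strain were less than 6 points apart, a closeness that the rule favours.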

How the data were processed

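ERRBS libraries of 4 male mouse livers were read from the files of the authors, who digested DNA with MspI per the labels, converted it with bisulfite and sequenced single-end reads of 50 cycles. The study's methods name BSMAP for mapping to mm10, while the submitters' processing notes name Bismark and SAMtools, with versions not given in the sources used here. The authors deposited, for each CpG cytosine and strand with at least 10 reads, the coverage as an unnormalised read count and the percent of reads with C or T. Replicates were not pooled, and nothing was renormalised. Mean coverage was between 44.2 and 63.7 reads.

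Cytosines were joined over the 4 mice (1253673 common on autosomes) and chosen by the rule. Every one fell on a CpG of GRCm38.p6, whose RefSeq annotation gave the features. CpGi were called on repeat-masked sequence (200 bp or more, GC of 50% or more, CpG ratio above 0.6), which gave 15713, with shores of 2000 bp. The members and gene lists were chosen with earlier results of these data known. Named were the 12 regions with the most member CpGs, the 6 largest gaps overall and in promoters, and listed genes with members. After these were seen, Trim11, Camk2g and Farp1 (both strands members), Gm52543, Adad2 and Zfp488 (other bases), Anks1 and the second Gm24071 region were also named. The counting was tested on simulated data. Same-numbered mice did not deviate together (correlation -0.000192 over 364539 cytosines). Python 3.11.15, numpy 2.4.6, pandas 2.3.3, scipy 1.17.1, numba 0.67.0 and matplotlib 3.10.9 were used.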

Additional observations from a re-analysis of the deposited data

How the results depend on the processing

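The count of members kept its place above all other pairings under a coverage minimum of 10, 20 or 30, a gap of 20 or 25 points and merged strands. With a gap of 10 points it did not. A minimum of 10 reads gave 2036 members, against 1887 with Mixed-1 and B6-1 lower. It gave 31.0% of neighbours within 100 bp separated (32.3% in the report's setting), and a minimum of 20 gave 34.0%. A minimum of 30 gave 708 members at 704 CpGs, 883 in the opposite strain direction, 478, 344, 421 and 348 in the other pairings, 14 regions of 3 or more CpGs, 39.2% of neighbours and 36.6% of opposite-strand cytosines separated, and 12.1% in CpGi. A gap of 10 points gave 4825 members at 4781 CpGs, 7007 in the opposite direction, 5039, 3829, 4611 and 4011 in the other pairings, 110 regions, 29.2% of neighbours separated and 32.1% between genes. A gap of 20 gave 480 members at 476 CpGs, 756 opposite, 281, 212, 281 and 222, 6 regions and 35.4%. A gap of 25 gave 167 at 165 CpGs, 280 opposite, 71, 57, 68 and 34, 1 region, 39.0%, 38.9% between genes, 8.38% in CpGi, 9.58% in shores and 15.6% in repeats. Without repeats 1271 members at 1265 CpGs and 21 regions were left, 31.9% of neighbours and 26.0% of opposite-strand cytosines were separated, and 23.1% lay in exons and 31.2% between genes. Merged strands gave 1027 members, 1769 opposite, 939, 726, 902 and 725 in the other pairings, 15 regions and 15% in repeats. Neighbours within 50, within 200 and from 51 to 200 bp were separated in 34.8%, 29.7% and 24.2%. Promoters taken only upstream held 5.41% of members, with 25% in exons, and those of 2000 bp on each side 18.5%, with 17.5% in exons and 29.4% in introns.

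Pairing the mice by number as a replicate block, with a difference of 15 points in each pair, gave 2667 members at 2639 CpGs and 51 regions. The numbers are labels only, and this is no test.

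Leaving out 1 mouse loosens the rule, and then 6375 to 10816 cytosines at 6294 to 10653 CpGs met it, with 195 to 312 regions, 46.6% to 49.9% of neighbours and 41.0% to 48.3% of opposite-strand cytosines separated. Promoters then held 11.4% to 16.3%, exons 18.5% to 20.7%, introns 32.1% to 33.7%, intergenic sequence 31.0% to 37.7%, CpGi 7.33% to 11.3%, shores 7.03% to 9.95% and repeats 9.71% to 18.8%. Of 94 values of the 12 named regions under the alternatives, 0 changed sign. A value counted as moved when it shifted by more than the larger SD between the 2 mice of a strain. Leaving out 1 mouse always shifts a value by less than that, so those values could not count as moved. The Cnbd2 region, for one, went from 46.1 to 22.5 points without Mixed-1. Under the other alternatives 1 value moved, that of the region nearest Gm40562, from 25.2 to 15.5 points at a minimum of 30 reads. Depth limits single values, with about 24.5 points of counting interval at a member.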
